A study of Mus musculus with 6 samples.

Results

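Integrins, laminins and the proteins that join them in the basement membrane were compared between preadipocytes selected for high and for low binding of FcsFNDC4, the soluble part of FNDC4 fused to a human Fc fragment. The set was defined by gene symbol, but the symbols were chosen with earlier results of these data known. It took in every integrin alpha and beta subunit and laminin chain with a transcript cluster (a set of probes read as 1 value) of its own, together with nephronectin (Npnt), the nidogens (Nid1 and Nid2), perlecan (Hspg2), agrin (Agrn), fibronectin (Fn1) and vitronectin (Vtn). The leukocyte integrins Itgad, Itgam, Itgax, Itgal and Itgb2, the genes of integrin-binding proteins and the integrin-like gene Itgbl1 were left out. This gave 39 genes of 19938 tested, each with 1 cluster, of which 22 were integrin subunits (14 alpha and 8 beta), 10 were laminin chains and 7 were other matrix proteins.

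The cells were an immortalised preadipocyte line from the stromal vascular fraction of inguinal white fat of male 129SVE mice. High-binding cells (HBC) and low-binding cells (LBC) were gated after incubation with FcsFNDC4 and were sorted again until passage 20, so both groups carried the same repeated exposure to the ligand, detachment and sorting. Both were grown in the same medium before RNA was taken. Each group is 1 sorted population, measured on 3 arrays that the labels call technical replicates, so p-values here measure the spread between arrays and not between independent sorts. LBC replicates 2 and 3 have a source name that says HBC. They were kept as LBC because the title, which set all groups, and the phenotype label both say so.

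Integrins are receptors that pair an alpha with a beta subunit and tie the cytoskeleton to the extracellular matrix. Alpha subunits decide much of the ligand choice. Those encoded by Itga3, Itga6 and Itga7 bind laminins, those of Itga1, Itga2, Itga10 and Itga11 bind collagens, and those of Itga5, Itga8, Itgav and Itga2b read the arginine-glycine-aspartate (RGD) motif of ligands such as fibronectin, vitronectin and nephronectin. Laminins are trimers of an alpha, a beta and a gamma chain that self-assemble into the basement membrane, where nidogens, perlecan and agrin link them to type IV collagen and to the cell surface. Adipocytes are wrapped in such a basement membrane, while preadipocytes lie in a more fibronectin-rich matrix.

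Intensities are given as deposited, on a linear scale, and differences are on the scale of log2(intensity + 16), HBC minus LBC. The array medians over all clusters lay between 122 and 135, and log2 intensities correlated at 0.993 to 0.997 between arrays of a group and at 0.983 to 0.989 between arrays of different groups. As a reference for dim signal, 1015 olfactory receptor genes had group means between 13.8 and 85.1 from the 10th to the 90th percentile.

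The preadipocyte label was met by Pdgfra, at 4096 in HBC and 3166 in LBC, while Dpp4 and Lum, markers from the same list of 15, lay in the dim range in both groups. Of that list Col3a1, a fibrillar collagen chain, was called higher in HBC (2968 against 1696, log2 difference 0.80) and Dcn, the proteoglycan decorin, lower (2933 against 5049, log2 difference -0.78). Defining markers of other cell types were dim in both groups, with Adipoq and Lep of the mature adipocyte, Pecam1, Cdh5 and Kdr of the endothelium, Ptprc of leukocytes and Epcam of epithelium. Whole lists were not: 3 of 9 mature adipocyte, 8 of 12 endothelial and 5 of 12 epithelial markers were dim. None of these 3 lists had a call, although Retn (187 in HBC and 120.3 in LBC), Aqp7 (141 and 98.8) and Krt19 (461 and 353) were higher in HBC at limma adjusted p of 7.91e-06, 0.000234 and 0.00222. Sox17, an endothelial marker dim in both groups, was lower in HBC (49.0 and 66.4, limma adjusted p = 0.00567). Differences were negative in 6 of the 9, 11 of the 12 and 10 of the 12 markers, beside 13825 of all 19938 genes. Cnn1 of smooth muscle was called lower in HBC, at 306 against 546 (log2 difference -0.80), while the summed level of its list of 10 (3 dim) overlapped, at 5195 to 5521 and 5296 to 6019.7. The summed level of 6 Schwann cell markers, 1 of them dim and none called, was 1108 to 1171 in HBC and 1193 to 1292 in LBC. The summed level of 14 macrophage and leukocyte markers, 8 of them dim in both groups and none called, was 1086 to 1137 in HBC and 1192 to 1286 in LBC. Among these 14, 11 differences were negative and 3 positive, and Cd14 was lower in HBC (107 and 155, limma adjusted p = 8.86e-05). The part of any marker named or summed here in the results was not tested.

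Of the 39 genes, 3 were called higher in HBC (Agrn, Itga11 and Lama4) and 2 lower (Npnt and Itga3), by limma with adjusted p under 0.05 and a fold above 1.5 on the log2(intensity + 16) scale, a difference of 0.58. Ratios of plain intensities, given beside the differences, can lie on the other side of 1.5. The 5 calls were 12.8% of the members, beside 3.67% of all genes tested (2.54% higher and 1.13% lower). The members were chosen with earlier results of these data known, and Npnt and Agrn are among the 7 added by name. The count of 5 rests on 1 population per group, and in bulk RNA fewer cells of a type and less RNA per cell cannot be told apart. Without the fold threshold, 14 members (35.9%) passed, 8 higher and 6 lower, beside 18.3% of all genes (6.93% higher and 11.4% lower). The 3 HBC arrays lay wholly above the 3 LBC arrays in 8 members, beside 10.1% of all genes, and wholly below in 7, beside 25.1%. Together these were 38.5% of the members, close to the 35.2% of all genes. The median difference was -0.02 over the members and -0.07 over all genes, and the sign over the members turned with the scaling of the arrays, up to 0.059 with cyclic loess. For 30 of the 34 that were not called, the 95% interval lay inside a 1.5-fold difference in either direction, and for Lama5, Nid1, Itga1 and Itga6 it reached past it. The 30 include the 7 members dim in both groups, where the added 16 makes differences smaller. Others of the 30 lay not far above the dim range, such as Itga2 (92.1 in HBC and 92.6 in LBC) and Vtn (98.8 and 105). Also among the 30 were Itgb8, Nid2, Lamb2 and Itgb2l, which had limma adjusted p under 0.05.

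**Figure D1:**
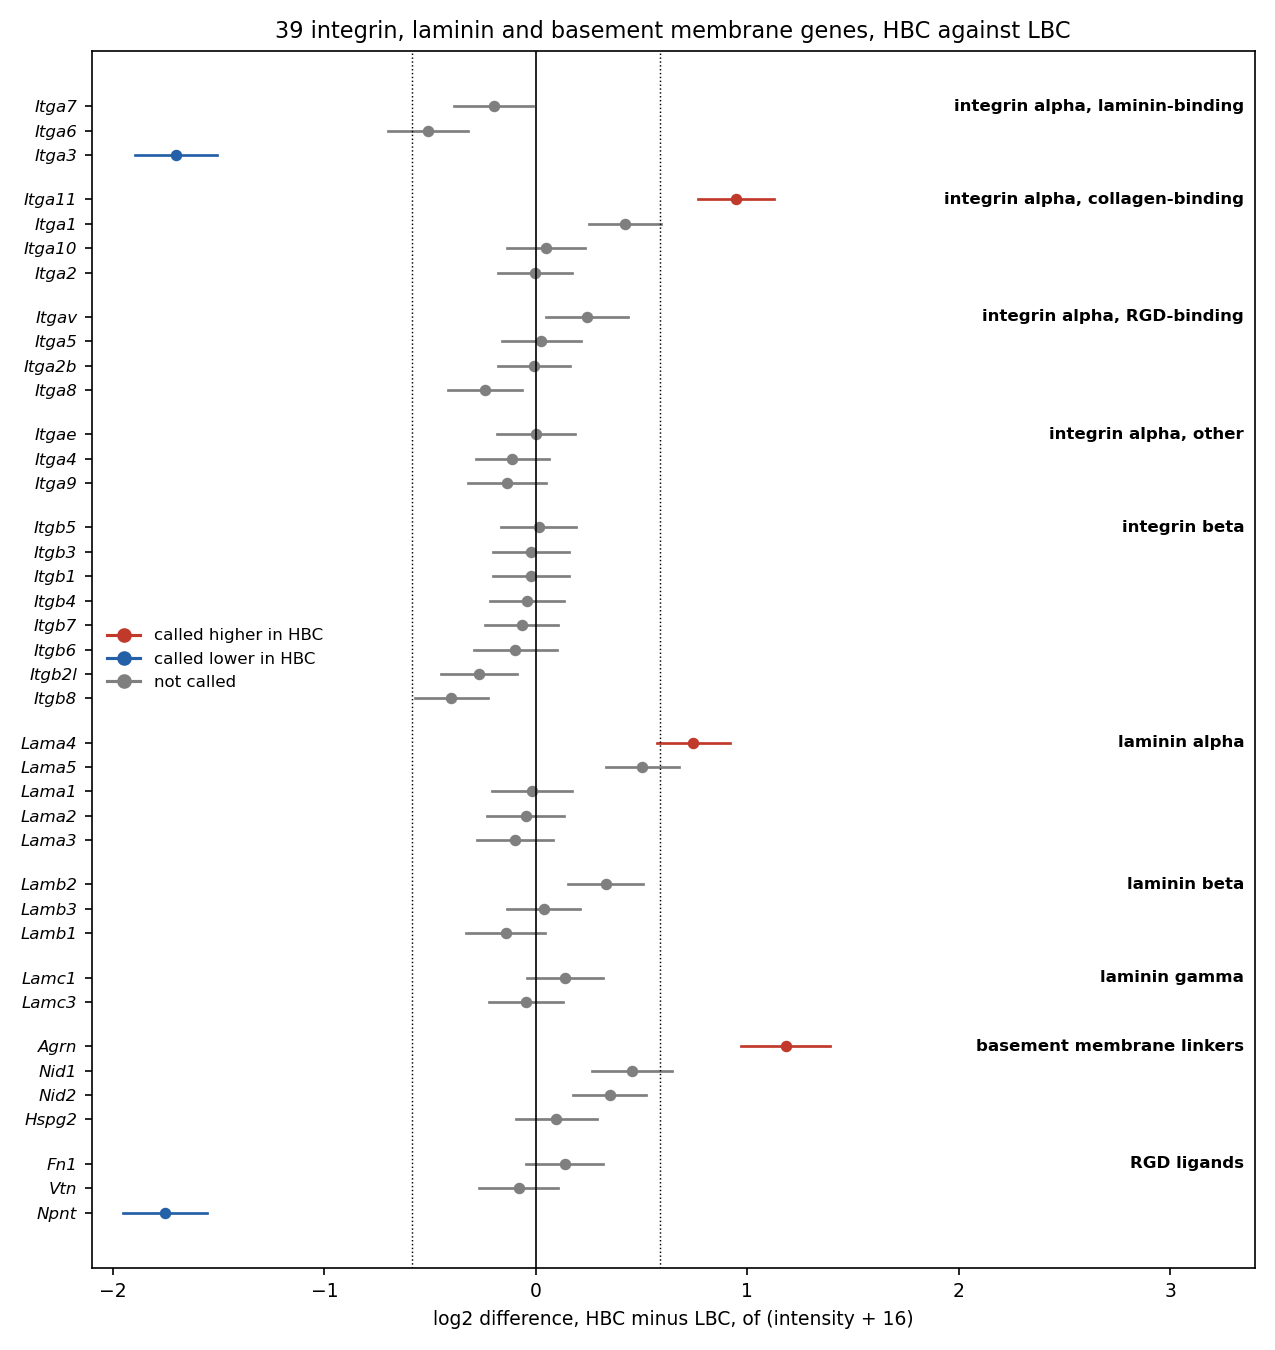
Difference between HBC and LBC for each of the 39 members, on the log2(intensity + 16) scale, grouped by role. Points are limma estimates from 3 arrays per group and bars their 95% intervals, the dotted lines mark a 1.5-fold difference, and the 5 coloured genes were called: Npnt and Itga3 lie near -1.7, and Agrn, Itga11 and Lama4 between 0.74 and 1.18.

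The 2 falls, of an RGD ligand and a laminin receptor subunit, were larger than the 3 rises. Npnt encodes nephronectin, a basement membrane protein known as the ligand of integrin alpha 8 beta 1 in kidney development. Its intensity was 325, 323 and 281 on the HBC arrays and 997, 987 and 1283 on the LBC arrays. LBC was thus 3.51-fold above HBC, at 1089 ± 169 against 310.0 ± 24.7 (SD, n = 3 arrays each), with no overlap. The log2 difference of -1.75 (SE 0.10, limma adjusted p = 4.82e-15) was rank 3 among all 19938 genes counted from the largest fall. Itga3 encodes integrin alpha 3, which pairs with beta 1 and binds laminins such as laminin-332 and laminin-511. It read 112, 98.4 and 103 in HBC and 344, 348 and 444 in LBC. The means were 105 ± 7.19 and 379 ± 56.4 (SD, n = 3), which is 3.62-fold higher in LBC (log2 difference -1.70, SE 0.09, limma adjusted p = 5.08e-15, rank 5 among falls). In HBC, Itga3 lay just above the dim range. In both genes every LBC array was above every HBC array, and LBC replicate 3 was the highest of the 6.

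Both genes start in GC-rich sequence, shown here because their transcripts fell most. The letters are those of the RefSeq promoter table (GRCm38.p6), bases upstream of the outermost annotated start, read on the gene's strand, with matches to the GC box GGGCGG or its reverse complement CCGCCC in capitals.
Npnt, chr3:132950292-132950541, minus strand: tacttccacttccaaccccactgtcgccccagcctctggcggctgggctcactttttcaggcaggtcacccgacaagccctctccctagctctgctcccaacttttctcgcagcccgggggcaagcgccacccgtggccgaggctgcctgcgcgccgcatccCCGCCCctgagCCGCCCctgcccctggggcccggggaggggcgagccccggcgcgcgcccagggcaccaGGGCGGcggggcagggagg
Itga3, chr11:95076845-95076964, minus strand: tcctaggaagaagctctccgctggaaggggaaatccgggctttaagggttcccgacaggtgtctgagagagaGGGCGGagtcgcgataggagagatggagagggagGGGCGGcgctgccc
The Npnt window of 250 bases held 3 GC boxes and 21 CpG dinucleotides at 74.0% G or C. The Itga3 window held 3 GC boxes, of which 2 fall in the 120 bases shown, and 22 CpG dinucleotides at 67.6% G or C. Over all 32851 promoter windows of this length in the table, 32.7% held a GC box, and the median window had 6 CpG dinucleotides and 52.4% G or C. The Itga3 window also had 1 match, outside the bases shown, to the interferon response element (a doubled GAAA with 2 free bases between, on either strand), which 3.0% of all windows held. The bases of the Itga3 window that are not shown lie past the outermost annotated start, inside the annotated gene. This match and the GC box not shown are therefore not upstream of that start. The CpG count and the share of G or C of the Itga3 window include those bases.

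Of the other laminin-binding subunits, neither was called. Integrin alpha 6 joins beta 1 or, in hemidesmosomes, beta 4. It read 644, 621 and 588 in HBC and 798, 850.3 and 1025 in LBC, a ratio of 1.44 in favour of LBC (log2 difference -0.51, SE 0.09, limma adjusted p = 0.000119). Itga7, the laminin receptor subunit of muscle, differed by -0.20 (limma adjusted p = 0.134) with overlapping arrays. Its HBC mean of 86.2 lay just above the dim range. Itgb4, the hemidesmosome subunit, differed by -0.04 (interval -0.22 to 0.13, limma adjusted p = 0.778).

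Among the collagen-binding subunits, Itga11 rose in HBC. Integrin alpha 11 pairs with beta 1 and is a receptor for fibrillar collagen on mesenchymal cells. It read 275, 299 and 264 in HBC and 142, 145 and 125 in LBC, with every HBC array far above every LBC array. The means of 279 ± 17.9 and 137 ± 10.5 (SD, n = 3) gave a 2.03-fold difference (log2 difference 0.95, SE 0.09, limma adjusted p = 7.45e-10), rank 253 among rises. Itga1, the subunit that prefers type IV collagen, read 274, 281 and 274 in HBC and 198, 207 and 204 in LBC. Its 1.37-fold difference was below the fold for a call although the arrays did not overlap (log2 difference 0.42, limma adjusted p = 0.000345). Itga10 and Itga2 differed by 0.05 and -0.01, with overlapping arrays.

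**Figure D2:**
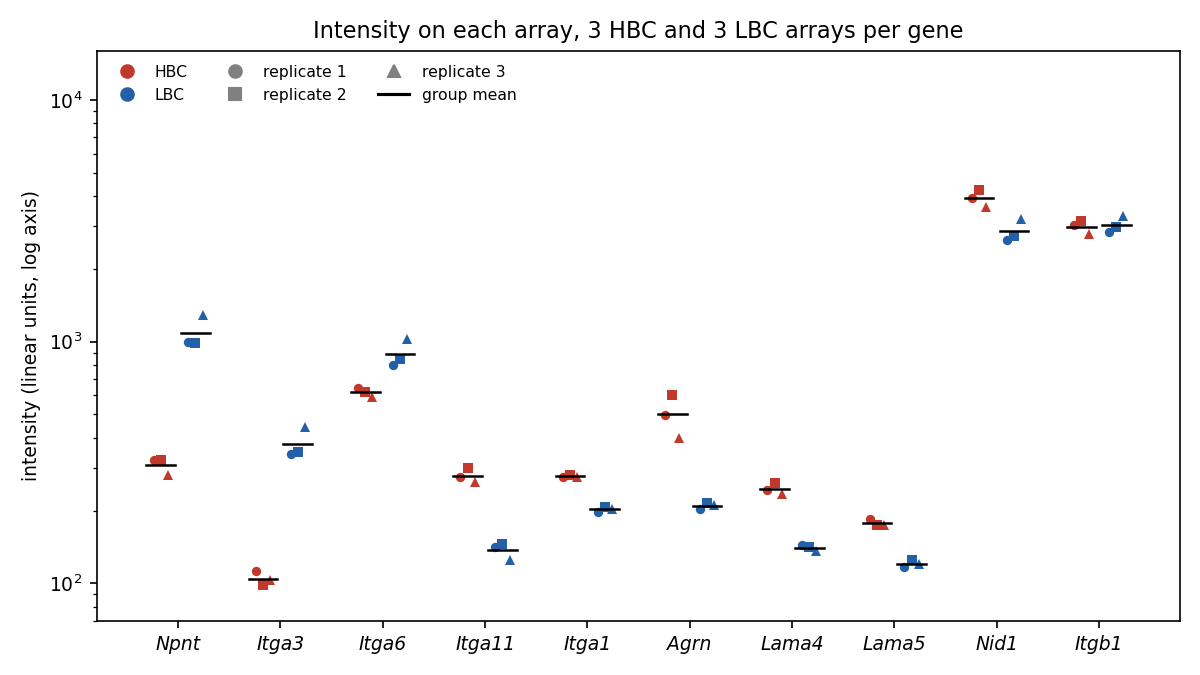
Intensity on each array for 10 members, the called and nearly called ones and Itgb1, on a log axis in linear intensity units. Red marks are HBC and blue marks LBC, the shape gives the replicate number and the black line the mean of 3 arrays. HBC and LBC do not overlap in the 9 genes picked as called or nearly called, and they overlap in Itgb1. Over all genes tested, 35.2% did not overlap.

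Of the 4 basement membrane linkers, 1 was called, higher in HBC (2.54% of all genes), a count too small to compare. The 4 differences lay between 0.10 and 1.18. Agrn, whose product agrin is a heparan sulfate proteoglycan that binds laminin and alpha-dystroglycan and clusters acetylcholine receptors at the neuromuscular junction, had the largest rise among the members. It read 499, 603 and 401 in HBC and 203, 214 and 211 in LBC, so its HBC arrays were more spread than its LBC arrays and all lay above them. The means were 501 ± 101 and 209 ± 5.76 (SD, n = 3), a 2.40-fold difference (log2 difference 1.18, SE 0.10, limma adjusted p = 2.23e-10, rank 186 among rises). Nid1, which bridges laminin gamma 1 and type IV collagen, read 3915, 4258 and 3615 in HBC and 2637, 2750.1 and 3206 in LBC. This was 1.37-fold (log2 difference 0.46, limma adjusted p = 0.000459) and was not called. Its paralog Nid2 read 509, 504 and 478 in HBC and 369, 381 and 411 in LBC, and was not called (log2 difference 0.35, limma adjusted p = 0.00321). Hspg2, the gene of the proteoglycan perlecan, overlapped between groups, with a difference of 0.10 and an interval of -0.09 to 0.29.

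The starts of the risen genes with a window in the table differed from each other in GC boxes, and are shown for comparison with those of Npnt and Itga3. GC boxes are again in capitals.
Agrn, chr4:156197534-156197738, minus strand: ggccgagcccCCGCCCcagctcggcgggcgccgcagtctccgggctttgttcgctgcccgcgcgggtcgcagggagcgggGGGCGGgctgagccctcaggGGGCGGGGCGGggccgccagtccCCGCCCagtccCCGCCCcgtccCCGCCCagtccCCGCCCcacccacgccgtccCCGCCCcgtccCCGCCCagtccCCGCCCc
Itga11, chr9:62677605-62677854, plus strand: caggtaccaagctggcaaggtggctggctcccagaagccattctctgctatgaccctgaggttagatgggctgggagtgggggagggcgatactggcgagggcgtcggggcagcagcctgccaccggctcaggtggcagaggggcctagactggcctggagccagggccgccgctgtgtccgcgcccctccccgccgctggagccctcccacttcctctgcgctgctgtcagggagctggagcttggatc
The Agrn window held 12 GC boxes, of which 11 fall in the 205 bases shown and 1 pair overlaps, with 35 CpG dinucleotides at 83.6% G or C. Its bases that are not shown again lie past the outermost annotated start and are included in these values. The Itga11 window had no match to the GC box and held 12 CpG dinucleotides at 68.4% G or C. None of the 4 windows matched the TATA box (TATAAA or TTTATA, in 12.4% of all windows) or the AP-1 site (TGANTCA, in 6.7%). Lama4 was not among the windows used. These matches describe letters and are not measured binding.

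Of the laminin chains, 1 of 10 was called, beside 3.67% of all genes, a count too small to compare. Lama4 encodes laminin alpha 4, the chain of laminin-411 in the basement membranes of vessels and adipocytes. It read 242, 261 and 234 in HBC and 144, 141 and 135 in LBC, which is 1.75-fold higher in HBC at 245 ± 13.8 against 139.9 ± 4.26 (SD, n = 3, log2 difference 0.74, SE 0.08, limma adjusted p = 5e-08), rank 364 among rises. Lama5, the chain of the widespread laminin-511, read 185, 174 and 173 in HBC and 116, 124 and 120.3 in LBC. The ratio was 1.47 and the gene was not called (log2 difference 0.50, limma adjusted p = 3.64e-05), and cyclic loess scaling of the arrays put it at 0.59 and called it. Lama1, Lama2 and Lama3 differed by -0.10 to -0.02, with Lama2 and Lama3 in the dim range. Lamb2, a beta chain that joins alpha 4 or alpha 5, read 978, 1018 and 905 in HBC and 709.7, 769 and 822 in LBC, and was not called (log2 difference 0.33, limma adjusted p = 0.00691). Lamb1 differed by -0.14 with overlapping arrays. The common gamma chain Lamc1 had means of 1353 in HBC and 1230.4 in LBC and overlapping arrays (log2 difference 0.14, interval -0.04 to 0.32). Lamb3 and Lamc3 differed by 0.04 and -0.05.

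**Figure D3:**
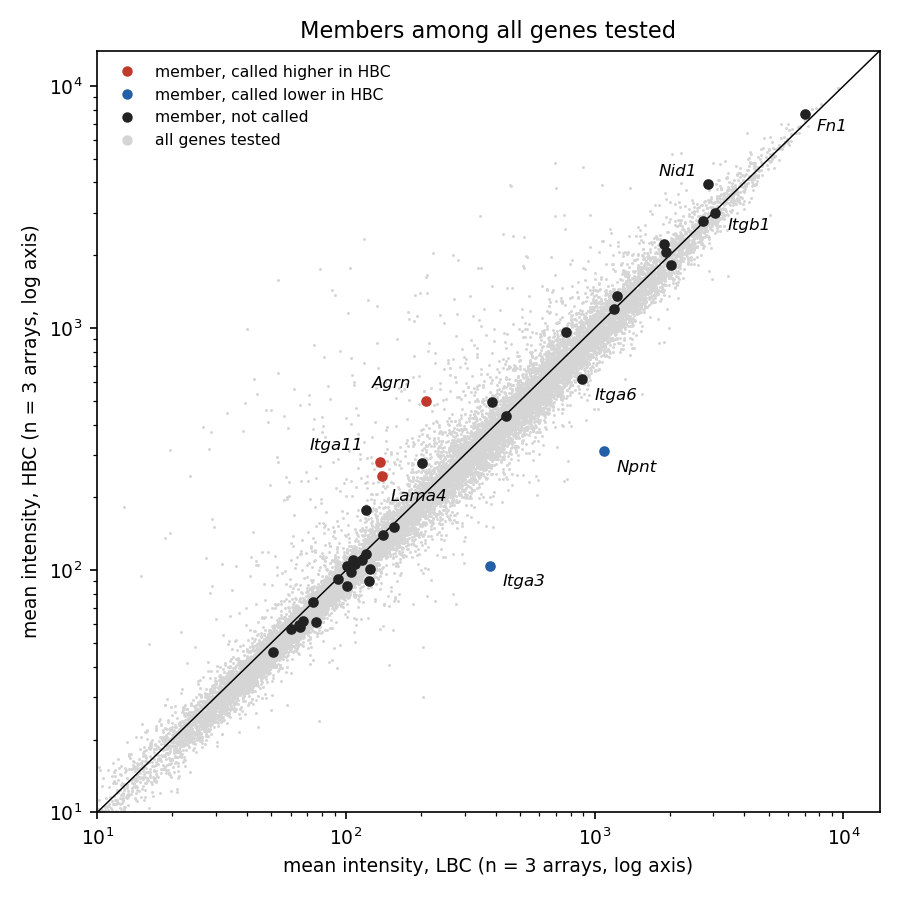
Mean intensity in HBC against mean intensity in LBC for all genes tested (grey) and the 39 members (coloured or black), both on log axes that start at 10, with the line of equal level and n = 3 arrays per group. Npnt and Itga3 lie far below the line, Agrn, Itga11 and Lama4 above it, and most members close to it.

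The beta subunit that most of these alpha subunits share differed little. Itgb1, the partner of alpha 1, alpha 3, alpha 6, alpha 8 and alpha 11, read 3043, 3158 and 2780.4 in HBC and 2834, 2980.4 and 3321 in LBC. The groups overlapped, and the difference of -0.02 had an interval of -0.20 to 0.16 (limma adjusted p = 0.887). Its sign turned to 0.021 with each array centred on its median, to 0.029 without HBC replicate 3 and to 0.041 without LBC replicate 3. None of the 8 beta subunits was called, beside 3.67% of all genes, a count too small to compare. Itgb8, whose product pairs with alpha v and activates latent TGF-beta, was the beta subunit with the largest difference, at 86.4, 90.6 and 93.3 in HBC and 123, 132 and 117 in LBC (log2 difference -0.40, limma adjusted p = 0.00084). In HBC, Itgb8 lay just above the dim range. Itgb2l, a relative of the leukocyte subunit gene Itgb2, differed by -0.27 (limma adjusted p = 0.0289). Itgb3, Itgb4, Itgb5, Itgb6 and Itgb7 differed by -0.10 to 0.01 and overlapped.

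Npnt aside, no RGD ligand or RGD-binding alpha subunit was called, beside 3.67% of all genes, a count too small to compare. Fn1 encodes fibronectin, the main matrix protein laid down by fibroblasts. It read 7554, 8054 and 7349.8 in HBC and 6433, 6838 and 7661 in LBC, which overlap (log2 difference 0.14, interval -0.04 to 0.32, limma adjusted p = 0.313). Vtn, the gene of vitronectin, a plasma protein made mostly by liver, differed by -0.08. Of the receptors, Itga5, the fibronectin receptor subunit, differed by 0.03. Itgav, the subunit shared by receptors for vitronectin and latent TGF-beta, read 2276, 2298 and 2105 in HBC and 1680.1, 1785 and 2218 in LBC, and overlapped through LBC replicate 3 alone (log2 difference 0.24, limma adjusted p = 0.079). Under the 3 scalings Itgav differed by 0.23 to 0.28, with limma adjusted p of 0.00297 to 0.0419. Itga8, the subunit of the receptor for nephronectin, was dim in both groups, at 63.1, 63.6 and 57.4 in HBC and 77.1, 79.6 and 69.9 in LBC (log2 difference -0.24, limma adjusted p = 0.047). Itga2b, the platelet subunit, differed by -0.01. In all, 7 members were dim in both groups (Itga4, Itga8, Itga9, Itgae, Itgb6, Lama2 and Lama3). None of these was called, beside 3.67% of all genes, a count too small to compare.

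The genes called among those that work beside the members were all higher in HBC. Over all genes, 507 of the 732 called were also higher in HBC, and 225 were lower. Of 24 other basement membrane genes, 2 were called (8.33%, beside 3.67% of all genes) and the median difference was -0.0005. Col15a1 encodes type XV collagen, which links basement membrane to interstitial fibrils, and had means of 679 ± 37.6 in HBC and 248 ± 21.1 in LBC, a ratio of 2.74 (SD, n = 3, log2 difference 1.40, limma adjusted p = 1.01e-13). Col18a1, the gene of type XVIII collagen and of its fragment endostatin, had means of 395 ± 17.4 and 159 ± 5.01, a ratio of 2.48 (SD, n = 3, log2 difference 1.23, limma adjusted p = 7.79e-13). Col4a1 and Col4a2, the main type IV collagen chains, differed by 0.35 and 0.37 and were not called.

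Of 36 integrin activators and focal adhesion adaptors, 2 were called (5.56%, beside 3.67% of all genes), both tensins, which tie beta subunit tails to actin. Tns1 had means of 1291 in HBC and 739 in LBC (log2 difference 0.79, limma adjusted p = 2.67e-08), and Tns2 had 1594 and 1000.4 (log2 difference 0.67, limma adjusted p = 1.81e-06). The median over this list, which holds talins, kindlins and integrin-linked kinase, was 0.02. Of 24 other matrix receptors and integrin partners, the called gene (4.17%, beside 3.67% of all genes) was Cd47, an integrin-associated receptor for thrombospondin, at 2055 in HBC and 1328 in LBC (log2 difference 0.62, limma adjusted p = 2.6e-06), and the median was 0.16. Cd47 lay near the threshold and was not called without HBC replicate 2 or without LBC replicate 1. Cd82, a tetraspanin, and Sdc3, a syndecan, had intensity ratios slightly above 1.5 but fell just short of the threshold on the log2(intensity + 16) scale. Both were called without HBC replicate 3 or without LBC replicate 3, Sdc3 also without HBC replicate 1. Of 24 other integrin ligands, the called gene (again 4.17%) was Postn, which encodes periostin, a matrix protein bound by alpha v integrins, at 1412 ± 219 in HBC and 846 ± 59.7 in LBC (SD, n = 3, log2 difference 0.72, limma adjusted p = 1.25e-06), and the median was -0.09. L1cam, a cell adhesion molecule, differed by -0.55 and was called, as lower, without LBC replicate 2.

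**Figure D4:**
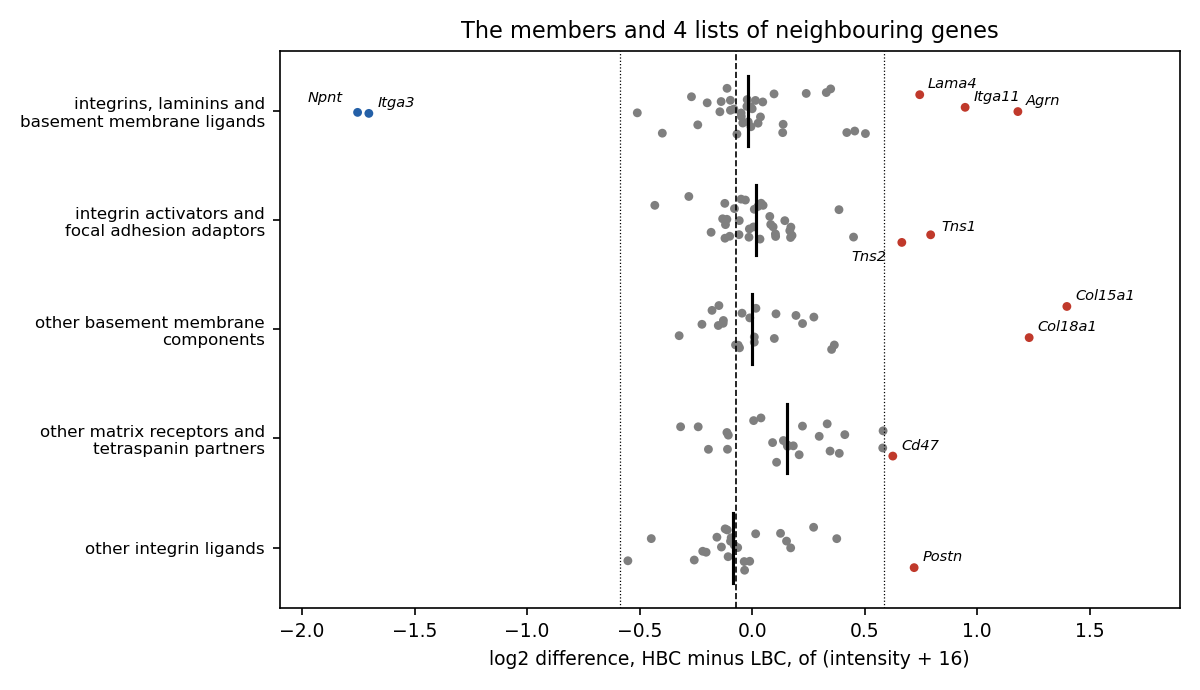
Log2 difference between HBC and LBC for the members and for the genes of 4 lists of neighbouring genes, 1 point per gene, with called genes coloured and named. The thick bar is the list's median, the dashed line the median of all genes at -0.07, and the dotted lines mark a 1.5-fold difference. The calls lower in HBC, Npnt and Itga3, are both members.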

How the data were processed

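RNA of HBC and of LBC was hybridised to Affymetrix mouse gene arrays, as 3 technical replicates of each. The authors deposited linear intensities, 1 per transcript cluster and array, made in Affymetrix Expression Console per the submitters' processing notes. The software version, and how probes were summarised and arrays scaled, is not given in the sources used here. A 2.0 ST array is named in the methods, but the row identifiers fit the annotation of an earlier mouse gene array.

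That annotation gave 1 symbol to 21789 of 35556 transcript clusters, several to 1621 and none to 12146. Only the first were used, and 21698 of them matched a RefSeq gene by identifier. Where a gene had several clusters (999 genes), that of the highest mean intensity over the 6 arrays was taken, which left 19938 genes. No member is among the 999, and none lies in a cluster shared with another gene.

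Groups were tested by limma 3.58.1 (lmFit and eBayes, R 4.3.3) on log2(intensity + 16), which makes differences of dim genes smaller, with Benjamini-Hochberg adjustment over all genes tested and no replicate block. The prior had 24.9 degrees of freedom beside 4 residual ones, so small adjusted p-values rest largely on the variance shared between genes and should not be read to their exponent. An exact permutation test of 3 against 3 arrays cannot go below p = 0.1. The number of arrays limits the precision.

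Members, lists and tests were chosen with earlier results of these data known. Named are all called members, the 6 others with the largest difference, Itgb1 and Fn1, and called genes of each list. Other members are given for completeness, and uncalled list genes were chosen after their values were seen. Promoter letters come from RefSeq (GRCm38.p6), for 4 of the 5 called members. Alternatives were 3 scalings, 2 intensity filters at 100, the methods' t-test, a trended and robust prior, 2 ways to combine clusters, a replicate block, an added 1 or 50, other fold thresholds, and leaving out each array.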

Additional observations from a re-analysis of the deposited data

How the results depend on the processing

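Under every alternative run with a fold above 1.5, the 5 called members were called, with log2 differences of the same sign, and no other member was, except that cyclic loess added Lama5 (6 members). Their adjusted p was highest with the methods' t-test, from 0.00913 (Lama4) to 0.0394 (Agrn). With a fold above 2, 3 members were called (Agrn higher, 1 gene, and Npnt and Itga3 lower), with 280 of all genes (236 higher and 44 lower), 0 adaptors, 0 other matrix receptors and 0 other integrin ligands. With no fold threshold the counts were 14 members (8 higher and 6 lower), 3655 of all genes (1381 higher and 2274 lower), 6 adaptors, 6 other basement membrane genes, 9 other matrix receptors and 5 other integrin ligands. Averaging the clusters of each gene left 1 adaptor (Tns2). An added 1 before log2 gave 2 other integrin ligands and 3 other matrix receptors, quantile, cyclic loess and median scaling each gave 3 other matrix receptors, and the methods' t-test gave 0 other integrin ligands. The members' median difference was 0.059 with cyclic loess, 0.027 with median centring and 0.017 with quantile scaling. Itgb1 differed by 0.021 with median centring and by -0.073 to 0.041 when 1 array was left out. Leaving out 1 array gave 710 to 784 of all genes, 0 to 3 other matrix receptors and 1 to 2 other integrin ligands.

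The arrays share only a number and are not pairs. Between HBC and LBC arrays of 1 number, deviations from the group means had correlations of -0.10, -0.24 and -0.50. Between those of different numbers the correlations ran from -0.47 (HBC replicate 2 with LBC replicate 1) to 0.49 (HBC replicate 3 with LBC replicate 1). With the replicate number as a block the counts were 5 members and 732 of all genes, as without it. Signal near that of olfactory receptor genes limits what can be read for the 7 dim members.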

Other observations

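The 9 members whose group means were above 1000 in both groups (Fn1, Hspg2, Itga5, Itgav, Itgb1, Itgb5, Lamb1, Lamc1 and Nid1) had log2 differences from -0.14 to 0.46. None was called, beside 3.67% of all genes, and 9 genes are too few to compare. LBC replicate 3 was the highest LBC array in 9 of these 9 genes, and HBC replicate 2 was the highest HBC array in 9 of 9. This is not particular to the members. Over all clusters the same arrays had the highest summed intensity of their groups, 1.95e+07 for LBC replicate 3 and 1.83e+07 for HBC replicate 2.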
